A study of Homo sapiens with 6 samples.

Results

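The collagen chain genes were taken as the genes whose deposited symbol consists of COL, a number, A and a number. There were 44 of them among 58395 genes, and all 44 were joined by gene identifier to the read counts. They comprised 11 fibrillar chains, 6 basement membrane chains of type IV, and 27 chains of other classes. RNA sequencing had been done on 6 clonal lines of HEK293, an established line from human embryonic kidney. The GST group was lines 2, 8 and 9, which expressed GST-3F, a tagged glutathione S-transferase serving as control protein. The NOCT group was lines 4, 11 and 12, which expressed NOCT ∆(2-15)-3F, the protein nocturnin with the same tag and without residues 2 to 15. Each line is 1 clone and 1 library, so the p-values here measure the spread between clones, and what belongs to the clone and what belongs to the protein cannot be told apart within a line. All lines were cultured alike for 3 days, and no group of untransfected HEK293 cells was analysed here.

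A collagen is a trimer of chains wound into a triple helix, in which glycine recurs at a regular spacing. Fibrillar collagens assemble into the banded fibrils of skin, bone and cartilage, type IV collagens form the network of basement membranes, and the remaining types decorate fibrils, build beaded filaments or anchoring fibrils, or span the cell membrane. Chains are hydroxylated, glycosylated and folded in the endoplasmic reticulum with the help of the chaperone SERPINH1, exported in large carriers, trimmed by proteinases outside the cell and cross-linked by lysyl oxidases. In the kidney, type IV chains build the basement membranes of glomeruli and tubules.

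The type IV genes lie as 3 head-to-head pairs, each pair transcribed outward from a shared promoter region, and these regions are shown first because the results on type IV turn on pairs. The sequences are from RefSeq (GRCh38.p14, plus strand, 5′ to 3′), and each is the stretch that the upstream windows of both genes have in common. Capitals mark GGGCGG or its reverse complement CCGCCC (the GC box) and CCAAT or its reverse complement ATTGG (the CCAAT box). The starts of COL4A1 and COL4A2 are 127 bases apart, and the sequence between them is chr13:110307158-110307283. The starts of COL4A4 and COL4A3 are 419 bases apart with the shared stretch at chr2:227164374-227164455, and those of COL4A6 and COL4A5 are 380 bases apart with the shared stretch at chrX:108439588-108439708.
COL4A1-COL4A2: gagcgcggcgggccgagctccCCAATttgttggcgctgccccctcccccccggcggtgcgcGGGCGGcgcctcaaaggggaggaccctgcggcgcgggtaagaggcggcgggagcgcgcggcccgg
COL4A4-COL4A3: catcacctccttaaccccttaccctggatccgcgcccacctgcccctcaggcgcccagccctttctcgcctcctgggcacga
COL4A6-COL4A5: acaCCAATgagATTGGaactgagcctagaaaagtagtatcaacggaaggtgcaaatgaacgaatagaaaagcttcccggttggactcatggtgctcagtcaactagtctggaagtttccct
Within the printed stretches, COL4A1-COL4A2 held 1 GC box and 1 CCAAT box, and COL4A4-COL4A3 held neither. COL4A6-COL4A5 held no GC box and 2 CCAAT boxes in opposite orientations. For COL4A4-COL4A3 and COL4A6-COL4A5, the remaining sequence between the starts is not shown. RefSeq promoter windows of COL4A3 and COL4A6, described below, did hold GGGCGG on either strand. GENCODE places the COL4A2 start at 110305812 and the COL4A4 start at 227164453. By these bounds the COL4A1-COL4A2 stretch lies inside COL4A2, and nearly all of the COL4A4-COL4A3 stretch inside COL4A4. GC content of the printed stretch was 80.2% for COL4A1-COL4A2, 67.1% for COL4A4-COL4A3 and 44.6% for COL4A6-COL4A5.

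The 250 bases before the start are also shown for COL5A1, COL7A1 and COL12A1, unlinked genes on different chromosomes whose RNA was high in NOCT lines 4 and 11 and lower in NOCT line 12. These genes were grouped by those values, and COL12A1 was picked after its values had been seen. Other members, such as COL1A1 and COL24A1, had the same order of lines and are not shown. Sequences are from RefSeq (GRCh38.p14) in the direction of transcription, at chr9:134641553-134641802 (plus strand), chr3:48595330-48595579 (minus strand) and chr6:75206054-75206303 (minus strand), and capitals mark the same motifs.
COL5A1: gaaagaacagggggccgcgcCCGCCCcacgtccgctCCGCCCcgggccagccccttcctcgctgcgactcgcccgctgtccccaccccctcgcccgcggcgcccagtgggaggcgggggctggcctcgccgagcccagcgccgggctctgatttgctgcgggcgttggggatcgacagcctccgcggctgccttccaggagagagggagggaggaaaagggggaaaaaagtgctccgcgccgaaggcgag
COL7A1: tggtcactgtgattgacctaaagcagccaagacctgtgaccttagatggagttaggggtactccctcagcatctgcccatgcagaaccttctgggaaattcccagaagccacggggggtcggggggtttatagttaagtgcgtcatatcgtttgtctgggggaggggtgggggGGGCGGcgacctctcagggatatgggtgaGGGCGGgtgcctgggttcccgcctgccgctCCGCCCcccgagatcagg
COL12A1: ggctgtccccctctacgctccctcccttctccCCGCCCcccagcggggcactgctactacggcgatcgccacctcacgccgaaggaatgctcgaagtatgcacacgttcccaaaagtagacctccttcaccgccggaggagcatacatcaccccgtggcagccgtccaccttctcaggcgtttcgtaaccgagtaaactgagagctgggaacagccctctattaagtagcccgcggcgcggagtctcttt
COL7A1 held 3 GC boxes in this stretch, COL5A1 held 2 and COL12A1 held 1, and none of these stretches held a CCAAT box. RefSeq promoter windows of 300 bases (250 before and 50 after a start) were at hand for 32 of the 44 members, as 44 windows. GGGCGG on either strand was found in 54.5% of the member windows and in 45.0% of all 35116 windows. CCAAT was in 31.8% against 34.6%, TATAAA in 18.2% against 11.5%, and TGANTCA, the AP-1 motif, in 2.27% against 7.71%, each on either strand and counted separately. The median GC content was 63.7% in member windows and 58.7% in all windows. A match of letters describes the sequence and does not show binding.

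Collagen genes as a class are long and much divided. The longest coding transcript of a member had a median of 48 exons, from 2 in COL10A1 to 118 in COL7A1, whereas the median over 13386 tested coding genes was 9. The 44 genes are spread over 17 chromosomes.

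Libraries held 19729745 to 24422406 reads counted to genes, of which 12115 to 28901 fell on collagen genes, with the most in NOCT line 4. TPM, a level per transcript length, sums to the same total in every line, and 43.0% to 47.7% of that total was the mitochondrial transcript MT-RNR2. The construct rows followed the labels: reads on the NOCT construct were 46 to 82 in the NOCT lines and 3 to 7 in the GST lines, and reads on the GST construct were 46 to 88 in the GST lines and 0 to 1 in the NOCT lines. Of 8 HEK293 marker genes, 7 had a mean of at least 1 TPM, with summed levels of 568 to 814 TPM in GST lines and 699 to 1264 TPM in NOCT lines. Most of these sums was VIM, at 353 to 534 TPM in GST lines and 428 to 856 TPM in NOCT lines. Of 10 stromal fibroblast markers, 3 had a mean of at least 1 TPM over the 6 lines (TWIST1, TWIST2 and PDPN). PDGFRB, THY1, FAP, POSTN and DPT each had a mean under 0.1 TPM. All 10 stromal markers together summed to 48.3 to 52.0 TPM in GST lines and 49.7 to 58.4 TPM in NOCT lines. Most of these stromal sums was PDPN and TWIST1.

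HEK293 lines of either group made most collagen RNA for basement membrane and beaded filament chains, with type IV at 43.5% of the summed collagen TPM in GST lines and 51.2% in NOCT lines. Averaged over the 6 lines, 5 members reached 10 TPM, 19 lay between 1 and 10 TPM, 18 were detected below 1 TPM, and COL1A2 and COL11A1 had 0 counts in every line. The 4 highest members, COL4A2 (47.2 TPM), COL6A1 (38.3 TPM), COL4A1 (37.8 TPM) and COL4A5 (16.6 TPM), made up 54.1% of all collagen TPM. COL1A1, the main chain of type I collagen, averaged 4.07 TPM, and its partner COL1A2 had no read. COL3A1, the chain of type III collagen, averaged 0.229 TPM.

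**Figure D1:**
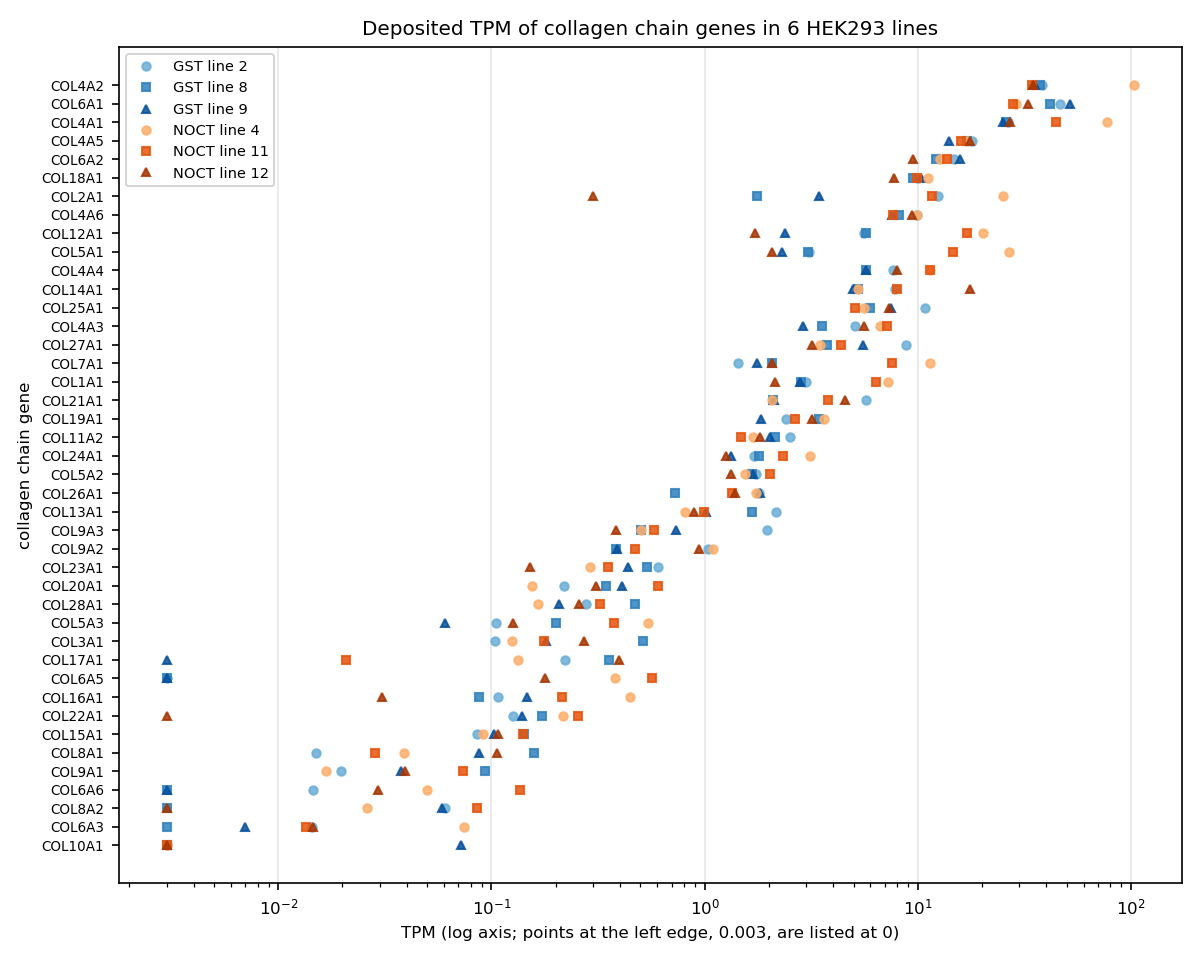
Deposited TPM (log axis) of the 42 collagen chain genes with at least 1 count, ordered by mean, with 1 point per clonal line (blue: GST lines 2, 8 and 9; orange: NOCT lines 4, 11 and 12). COL4A2, COL6A1 and COL4A1 head the order, COL2A1 spans 0.298 to 25.0 TPM, and COL6A5 is listed at 0 in all GST lines.

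The lines differed most in the fibrillar class. Summed fibrillar TPM was 33.6, 17.7 and 19.3 in GST lines 2, 8 and 9, and 69.7, 43.4 and 12.5 in NOCT lines 4, 11 and 12, so that the NOCT lines held both the highest values and the lowest. Type IV sums were 105, 97.8 and 90.9 TPM in the GST lines and 225, 121 and 102 TPM in the NOCT lines; NOCT line 4 stood above the rest and NOCT line 12 lay within the GST range. The other classes summed to 114, 93.5 and 104 TPM against 107, 102 and 91.9 TPM. The log2 ratio of group means was 0.83 for fibrillar, 0.61 for type IV, -0.05 for the other classes and 0.37 for all collagens. None of these ratios was tested, and every one of these sums overlapped between groups. The ratio of the other classes became 0.30 when COL6A1, their highest member, was left out. In bulk RNA from a clone, a difference in the number of expressing cells and one in RNA per cell cannot be told apart.

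Between the groups, no collagen gene passed the test in either direction. Of the 44 members, 32 had enough counts to be tested; the 12 others included 10 with a few reads, at most 73 in all 6 libraries together, while the tested member with the fewest had 53. With edgeR's quasi-likelihood test, adjusted over 17261 genes at 0.05, 0 of 32 members were called, beside 10 of 17261 genes (0.0579%). Log2 fold changes (NOCT over GST) were above 0 for 16 members and below 0 for 16, with a median of 0.02 against 0.0046 over all tested genes. At an unadjusted p under 0.05, edgeR listed 6 members higher in NOCT lines, beside 7.38% of all genes, and 5 lower, beside 6.52%. The groups did not overlap for 3 members that were higher (COL4A3, COL6A5 and COL7A1; background 10.5%) and for 4 that were lower (COL6A1, COL11A2, COL13A1 and COL23A1; background 9.54%), counts close to the background. COL6A5 and COL23A1 reached the minimum count only in the group where they were high, COL6A5 in the NOCT lines and COL23A1 in the GST lines, so they could enter these counts only by differing. Of the other 30 tested members, 5 were higher and 4 lower at an unadjusted p under 0.05, the groups did not overlap for 2 higher and 3 lower, and 15 lay on each side of 0.

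Some other procedures called 1 or more members. Calls made without a filter on low counts are given in the closing section. DESeq2 gave an adjusted p to 27 members and called 1 of them, COL6A1 (background 3.41% of 14918 genes). The authors' deposited table lists 40 members, 33 of them with an adjusted p, and is under 0.05 for 2: COL6A5, with a listed log2 fold change of 1.00 and an adjusted p of 5.2e-05, and COL6A1, with -0.65 and 0.00116 (background 2.87% of 17002 genes). The fold changes in the authors' deposited table are labelled as shrunken and are not on the scale of the values fitted here. With NOCT line 12 left out, edgeR tested 34 members and called 7 higher (background 3.15% of 17882 genes) and 1 lower (background 2.28%). COL6A5, without a count in any GST line, was among those called higher.

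**Figure D2:**
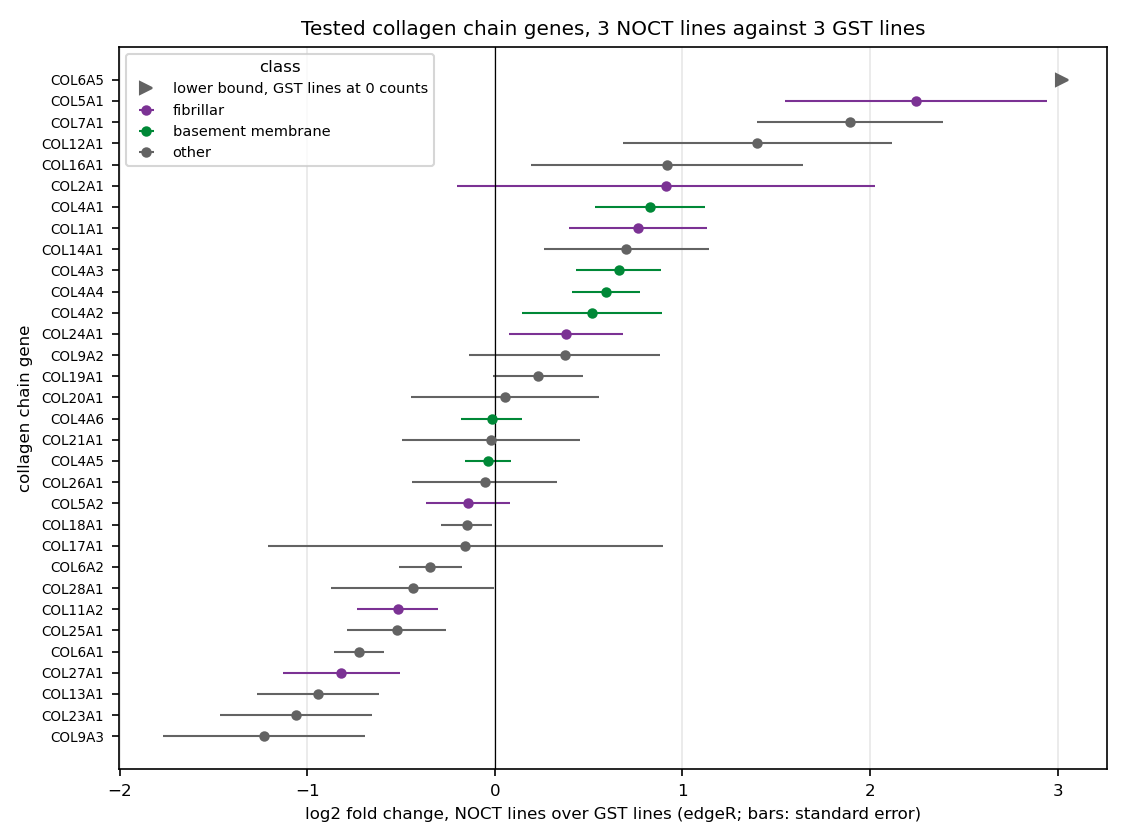
Log2 fold change (edgeR, NOCT lines over GST lines, bars: standard error) of the 32 tested collagen chain genes, coloured by class; the triangle for COL6A5 is a lower bound because its GST lines had 0 counts. Apart from COL6A5, values run from -1.23 for COL9A3 to 2.25 for COL5A1, and 16 genes lie on each side of 0, COL6A5 included.

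Of the 11 fibrillar genes 7 were tested, 4 with log2 fold changes above 0 and 3 below, with a median of 0.38 against 0.0046 over all genes. COL5A1, the main chain of type V collagen, which nucleates fibrils, had 245, 252 and 189 counts in GST lines 2, 8 and 9 and 2478, 1227 and 163 in NOCT lines 4, 11 and 12. NOCT line 4 was 8.61 times and NOCT line 11 4.87 times the GST mean in CPM (counts scaled to library size), while NOCT line 12 was below every GST line. The mean was 11.3 ± 1.85 CPM over the GST lines and 53.6 ± 44.6 CPM over the NOCT lines (SD, n = 3 each). The log2 fold change was 2.25 with an SE of 0.70, and edgeR's adjusted p was 0.232. In NOCT line 12 the level of neighbouring genes on chromosome 9 deviated by -0.35 (log2) from its mean over the lines. With that level taken off, COL5A1 had a log2 fold change of 2.44. Its partner COL5A2 had 88 counts in each GST line and 91, 109 and 67 in the NOCT lines, with a log2 fold change of -0.14 ± 0.22. The TPM ratio of COL5A1 to COL5A2 was 1.78, 1.83 and 1.37 in the GST lines and 17.4, 7.20 and 1.56 in the NOCT lines. COL5A3, a further chain of this type, had 5, 10 and 3 counts against 30, 19 and 6 and was too low to test. COL5A2 and COL5A3 were named after their values had been seen.

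COL2A1, the chain of cartilage type II collagen, had the widest spread among well-counted members. It had 588, 87 and 167 counts in the GST lines and 1371, 586 and 14 in the NOCT lines, a range of 83.8-fold in TPM. Both the highest and the lowest line were NOCT lines, and the difference between groups was below its error (log2 fold change 0.91 ± 1.11 SE, edgeR adjusted p = 0.751). COL1A1, named after its values had been seen, had 208, 206 and 201 counts against 588, 470 and 148 (log2 fold change 0.77 ± 0.37 SE, edgeR adjusted p = 0.402). The GST lines were at 9.57 to 11.0 CPM for COL1A1, and NOCT line 12 lay below them while the other NOCT lines lay above.

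COL27A1 and COL11A2 had the lowest log2 fold changes of the 7 tested fibrillar chains. COL27A1, a chain of developing cartilage, had 873, 387 and 568 counts in the GST lines and 402, 459 and 314 in the NOCT lines (log2 fold change -0.82 ± 0.31 SE, edgeR adjusted p = 0.298), and the groups overlapped. With the level of neighbouring genes on chromosome 9 taken off, this log2 fold change was -0.52. COL11A2, a chain of the type XI collagen of cartilage fibrils, had 120, 107 and 100 counts against 93, 75 and 86 (log2 fold change -0.52 ± 0.22 SE, edgeR adjusted p = 0.339), and all NOCT lines were below all GST lines. Its partner COL11A1 had no count in any line.

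All 6 type IV genes were tested; 4 had log2 fold changes above 0 and 2 below, with a median of 0.56, and 3 had an unadjusted p under 0.05, all higher, beside 7.38% of all genes. COL4A1 and COL4A2 encode the chains of the type IV collagen found in nearly all basement membranes. COL4A1 had 1538, 1578 and 1512 counts in the GST lines and 5204, 2731 and 1565 in the NOCT lines (log2 fold change 0.83 ± 0.29 SE, edgeR adjusted p = 0.271). COL4A2 had 2340, 2415 and 2269 counts against 7373, 2245 and 2126 (log2 fold change 0.52 ± 0.37 SE, edgeR adjusted p = 0.571). In NOCT line 4 COL4A1 stood at 2.68 times the GST mean in CPM, and COL4A2 was at 289.9 CPM against a GST mean of 115.8. In NOCT line 11 COL4A1 was at 1.61 times and COL4A2 at 0.870 times the GST mean, so that the pair parted in that line. The TPM ratio of COL4A1 to COL4A2 was 0.699, 0.695 and 0.709 in the GST lines and 0.750, 1.29 and 0.783 in the NOCT lines, without overlap. The direction for COL4A2 rested on NOCT line 4, without which its log2 fold change was -0.16. The median level of up to 50 neighbouring genes on each side of COL4A1 was 0.40 (log2) above its mean in NOCT line 4, and with the neighbours' level taken off the log2 fold change was 0.70 for COL4A1 and 0.34 for COL4A2.

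COL4A3 and COL4A4, which are among the chains of the glomerular basement membrane, did not pass the test and had fold changes close to each other. COL4A3 had 327, 239 and 194 counts in the GST lines and 500, 493 and 360 in the NOCT lines (log2 fold change 0.66 ± 0.22 SE, edgeR adjusted p = 0.261), and the groups did not overlap in CPM. COL4A4 had 542, 428 and 420 counts against 942, 862 and 568 (log2 fold change 0.59 ± 0.18 SE, edgeR adjusted p = 0.228), and GST line 2 (28.6 CPM) lay just above NOCT line 12 (28.5 CPM). The TPM ratio of COL4A3 to COL4A4 was 0.666, 0.617 and 0.510 against 0.586, 0.632 and 0.700, with overlap. Taking off the neighbours' level gave log2 fold changes of 0.86 for COL4A3 and 0.80 for COL4A4. COL4A3 overlaps the antisense gene AC097662.1, which had 165 counts over all lines beside 2113 for COL4A3; the strand setting of the counting is not given in the sources used here.

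COL4A5 and COL4A6, the X-linked pair, had the smallest range over the 6 lines of the tested members. COL4A5 had 1497, 1488 and 1213 counts in the GST lines and 1660, 1421 and 1472 in the NOCT lines, and COL4A6 had 650, 558 and 516 against 760, 534 and 613. Their log2 fold changes were -0.03 ± 0.12 and -0.02 ± 0.16 (SE), with edgeR adjusted p of 0.925 and 0.977. Spike-in scaling, which moved the median of all genes to 0.15, turned both above 0, to 0.11 and 0.12. Across the 6 lines COL4A5 ranged 1.28-fold in TPM and COL4A6 1.31-fold, against 3.07-fold for COL4A1 and 3.00-fold for COL4A2.

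**Figure D3:**
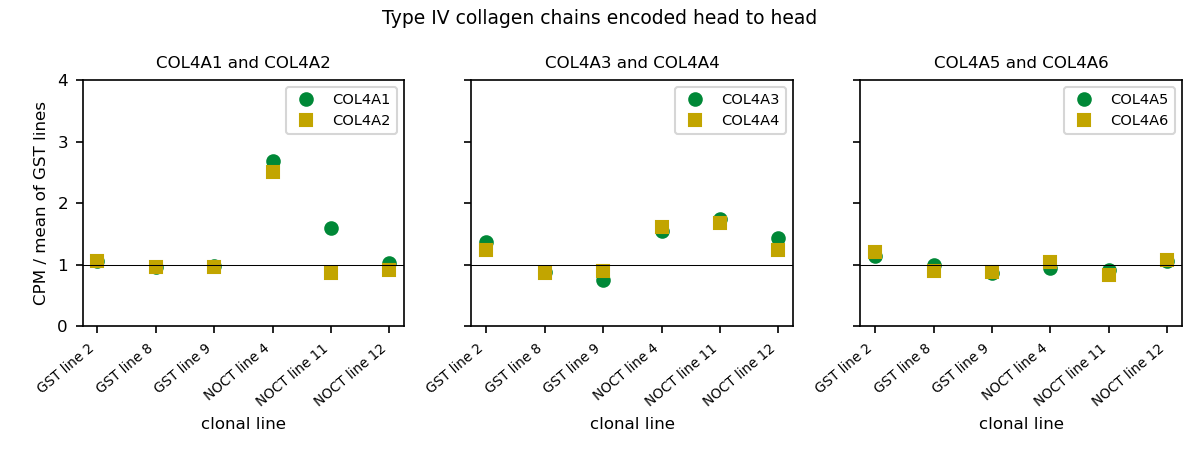
CPM of each type IV chain gene divided by its mean over the GST lines, 1 panel per head-to-head pair, 1 point per gene and clonal line. COL4A1 and COL4A2 both stand above 2 in NOCT line 4 and part in NOCT line 11 (1.61 and 0.870), whereas COL4A5 and COL4A6 stay near 1 in all lines.

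COL6A1 and COL6A2 encode type VI collagen, which forms beaded filaments, together with COL6A3, which had 19 counts over all lines; in place of COL6A3 the trimer can hold COL6A5 or COL6A6. COL6A1 had 1748, 1647 and 2030 counts in the GST lines and 1266, 1128 and 1242 in the NOCT lines, and every NOCT line (49.8 to 62.4 CPM) was below every GST line (76.5 to 99.8 CPM). Its log2 fold change was -0.72 ± 0.14 (SE), with an adjusted p of 0.111 in edgeR and 6.6e-04 in DESeq2, and from 2.7e-04 to 0.521 over all alternatives run. With the level of neighbouring genes on chromosome 21 taken off, the log2 fold change was -0.56 and the edgeR adjusted p was 0.112; in NOCT line 4 that level deviated by -0.36 (log2) from its mean over the lines. COL6A2, further along the same chromosome, had 559, 488 and 622 counts against 561, 558 and 361 (log2 fold change -0.34 ± 0.17 SE, edgeR adjusted p = 0.413), or -0.15 with the neighbours' level taken off. The TPM ratio of COL6A1 to COL6A2 was 3.15, 3.40 and 3.29 in the GST lines and 2.27, 2.04 and 3.47 in the NOCT lines, so NOCT line 12 kept a ratio like the GST lines and the other NOCT lines did not.

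COL6A5 was not detected in the GST lines. It had 0 counts in all 3 of them and 30, 41 and 12 counts in NOCT lines 4, 11 and 12, a mean of 1.21 ± 0.619 CPM (SD, n = 3). Against a floor of 3 counts per GST line this is at least 8.13-fold higher. Because it entered the test through the NOCT lines alone, its p-values are given as a description. The adjusted p was 0.0908 in edgeR and 0.0242 in limma voom, and DESeq2 gave it none. Over all alternatives run the adjusted p ranged from 8.4e-07 to 0.378. Its level was low, 0.178 to 0.569 TPM in the NOCT lines. COL6A6, the next collagen gene along chromosome 3 on the same strand (COL6A5 at chr3:130345516-130484844, COL6A6 at chr3:130560334-130678155), had 1, 0 and 0 counts in the GST lines and 4, 10 and 2 in the NOCT lines and was not tested.

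COL7A1 encodes the chain of type VII collagen, which ties the epidermal basement membrane to the dermis. It had 112, 169 and 143 counts in the GST lines and 1043, 627 and 162 in the NOCT lines. NOCT lines 4 and 11 stood at 5.92 and 4.06 times the GST mean in CPM, and NOCT line 12 (8.14 CPM) was just above the highest GST line (7.85 CPM). The log2 fold change was 1.89 ± 0.49 (SE, edgeR adjusted p = 0.194).

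Of the 10 genes for fibril-associated chains 8 were tested, 6 above 0 and 2 below, with none at an unadjusted p under 0.05. COL12A1, which coats type I fibrils, had 491, 527 and 217 counts in the GST lines and 2070, 1601 and 151 in the NOCT lines (log2 fold change 1.40 ± 0.72 SE, edgeR adjusted p = 0.428). COL14A1, a related chain, differed in the order of lines, with 476, 336 and 313 counts against 371, 520 and 1066, so that NOCT line 12 was the highest of all (log2 fold change 0.70 ± 0.44 SE). The level of the genes around COL14A1 on chromosome 8 was also highest in NOCT line 12, by 0.49 (log2), and taking it off left 0.39. COL9A3, a type IX chain of cartilage, had 67, 18 and 26 counts against 20, 21 and 13 (log2 fold change -1.23 ± 0.54 SE, edgeR adjusted p = 0.361), and its TPM ratio to COL9A2 was 1.89, 1.31 and 1.89 against 0.460, 1.22 and 0.405. COL9A3 is uncertain because TCFL5, on the opposite strand, overlaps it and had 3672 counts against 165. The other 5 tested genes of the class, COL9A2, COL16A1, COL19A1, COL20A1 and COL21A1, had log2 fold changes from -0.02 to 0.92 with edgeR adjusted p from 0.608 to 0.990. COL16A1 had 7, 6 and 10 counts against 34, 15 and 2, and COL19A1 overlaps the opposite-strand gene LMBRD1, which had 3200 counts beside 1090. COL9A1 and COL22A1, with 15 and 54 counts in all, were not tested. COL12A1, COL14A1, COL16A1 and COL19A1 were named after their values had been seen.

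The transmembrane chains COL13A1, COL17A1, COL23A1 and COL25A1 all had log2 fold changes below 0, with a median of -0.73, and 2 of them, COL13A1 and COL23A1, had an unadjusted p under 0.05, beside 6.52% of all genes. COL13A1, a chain of the neuromuscular junction, had 90, 73 and 44 counts in the GST lines and 39, 44 and 37 in the NOCT lines, without overlap in CPM (log2 fold change -0.94 ± 0.32 SE, edgeR adjusted p = 0.263). COL23A1 had 16, 15 and 12 counts against 9, 10 and 4, also without overlap in CPM (log2 fold change -1.06 ± 0.41 SE, edgeR adjusted p = 0.301), and it had entered the test through the GST lines alone. COL25A1, found in neurons and named here after its values had been seen, had 668, 387 and 480 counts against 404, 333 and 452, with overlap (log2 fold change -0.52 ± 0.26 SE, or -0.26 with the neighbours' level taken off). COL17A1, the hemidesmosomal collagen, had 53 counts in all and a log2 fold change of -0.16 ± 1.05 (SE).

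COL18A1, the basement membrane collagen from which endostatin is cut, had 606, 597 and 648 counts in the GST lines and 781, 637 and 463 in the NOCT lines (log2 fold change -0.15 ± 0.14 SE, edgeR adjusted p = 0.664). Its sign turned, to 0.045, when the neighbours' level was taken off, and its opposite-strand neighbour SLC19A1, with 5784 counts, overlaps it. The short chain genes COL8A1, COL8A2 and COL10A1 had 30, 8 and 2 counts in all and were not tested, nor was COL15A1 with 33. COL26A1 and COL28A1 had log2 fold changes of -0.05 ± 0.39 and -0.44 ± 0.43 (SE), and the fibrillar COL24A1 one of 0.38 ± 0.30.

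NOCT line 12 was often the lowest of the NOCT lines. This held for 17 of the 32 tested members (53.1%), against 38.5% of all tested genes. NOCT line 4 left the GST range more often. It lay inside that range for 21.9% of tested members (34.0% of all tested genes). NOCT line 11 did so for 40.6% (38.7%) and NOCT line 12 for 34.4% (42.4%). COL5A1 and COL12A1 were at least 2 times the highest GST line in NOCT lines 4 and 11 and not above it in NOCT line 12; that is 2 of 32 members (6.25%) beside 70 of 17261 genes (0.406%), a comparison made after the values had been seen and not tested. Without NOCT line 12, edgeR called COL1A1 (log2 fold change 1.12), COL5A1 (2.75), COL4A1 (1.10), COL4A4 (0.71), COL12A1 (1.91), COL7A1 (2.31) and COL6A5 higher, beside 3.15% of all genes. COL6A1 was called lower (-0.84), beside 2.28%, and edgeR adjusted p for these members ran from 0.00118 to 0.0465. Line 12 was singled out after its values had been seen, and its omission favours genes that were high in lines 4 and 11. COL6A5 had entered the test through the NOCT lines alone, so its call is a description. The HEK293 marker KRT8 also differed among the NOCT lines. It had 113.7 and 82.9 TPM in lines 4 and 11 and 45.8 TPM in line 12, against 31.3 to 38.3 TPM in GST lines. VIM, KRT18 and ENO2 had the same order of NOCT lines. NEFM went the other way, with 0.250 and 0.152 TPM in lines 4 and 11 and 4.44 TPM in line 12. NEFL and CDH2 were highest in NOCT line 11. PAX2, a kidney lineage marker, had 108, 83 and 96 counts in the GST lines and 19, 29 and 24 in the NOCT lines, so those groups did not overlap. Whether these markers' values bear on the collagen values was not tested.

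**Figure D4:**
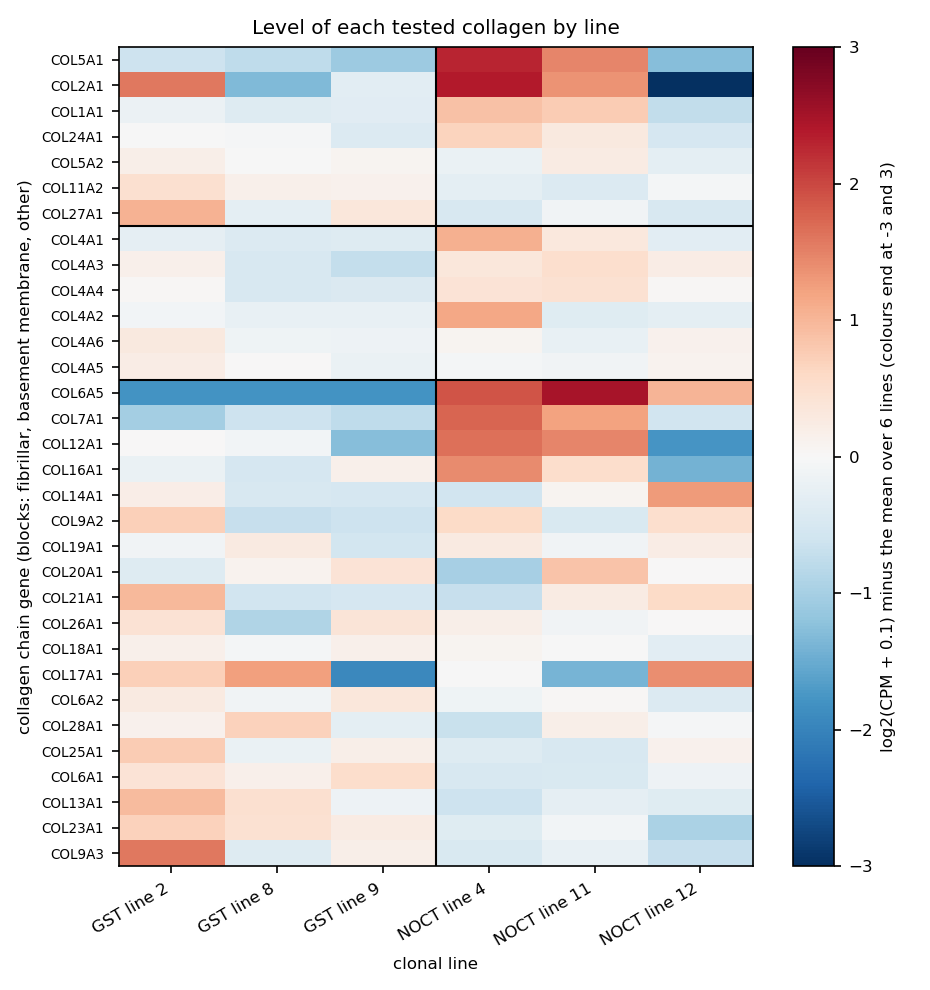
Deviation of each tested collagen chain gene, log2(CPM + 0.1) minus its mean over the 6 lines, by clonal line, with blocks for fibrillar, basement membrane and other chains. NOCT lines 4 and 11 are high and NOCT line 12 low for COL5A1, COL2A1 and COL12A1, while COL6A5 is high in all 3 NOCT lines. For COL2A1, GST line 2 is also high (1.59, against 1.35 in NOCT line 11).

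The list of 56 genes that modify, export, trim, cross-link, degrade or bind collagen held 1 call. Of these, 47 were tested, 33 with log2 fold changes above 0 and 14 below, with a median of 0.15 against 0.0046 over all genes. SPARC, a secreted protein that binds collagen, had 383, 654 and 418 counts in the GST lines and 1908, 1815 and 1431 in the NOCT lines, and it rose (log2 fold change 1.68 ± 0.17 SE, edgeR adjusted p = 0.0181). At an unadjusted p under 0.05, 12 were higher and 1 lower, beside the 7.38% and 6.52% of all genes. DESeq2 called 5 of 45, SPARC, PLOD2, DDR1 and MMP2 higher and ADAMTS2 lower, beside 3.41% of all genes. Without NOCT line 12, edgeR called 9 higher and 1 lower of 48, beside 3.15% and 2.28%. The call on SPARC was lost without GST line 2, GST line 9 or NOCT line 11, with edgeR adjusted p of 0.0707, 0.201 and 0.0898.

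Of the 13 hydroxylases and folding factors, which act inside the cell, 12 were tested, 10 above 0, with 5 at an unadjusted p under 0.05, all higher, beside 7.38% of all genes. SERPINH1, the collagen chaperone, had 949, 1014 and 972 counts in the GST lines and 1949, 1666 and 1021 in the NOCT lines (log2 fold change 0.48 ± 0.15 SE, edgeR adjusted p = 0.237), and P3H2, a prolyl hydroxylase of type IV chains, had 223, 192 and 219 against 615, 364 and 232 (0.73 ± 0.26 SE). Among the 5 lysyl hydroxylases and glycosyltransferases, PLOD2 had 1208, 1124 and 1073 counts against 1982, 1554 and 1866 without overlap (0.52 ± 0.14 SE, edgeR adjusted p = 0.194), and PLOD3 had a log2 fold change of 0.45 ± 0.19. The 7 export factors had a median of 0.0079 and none reached an unadjusted p under 0.05; MIA2 was at 0.26 and SEC24D at -0.22.

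Outside the cell, procollagen proteinases and lysyl oxidases showed no call in edgeR. Of the proteinases, ADAMTS2, which cuts the amino propeptide, had 160, 224 and 191 counts in the GST lines and 165, 137 and 89 in the NOCT lines (log2 fold change -0.72 ± 0.20 SE, edgeR adjusted p = 0.204), and ADAMTS3 was at -0.53. LOXL1 and LOXL2 had log2 fold changes of 0.64 ± 0.26 and 0.46 ± 0.26 (SE). MMP2, a gelatinase that cuts type IV collagen, had 25, 46 and 17 counts against 243, 216 and 28, so NOCT line 12 again lay in the GST range (log2 fold change 2.26 ± 0.68 SE, edgeR adjusted p = 0.222), and MMP14 was at 0.18 ± 0.33. The receptor DDR1, a collagen-binding tyrosine kinase, had 758, 968 and 742 counts against 1820, 1296 and 1128 without overlap (log2 fold change 0.62 ± 0.13 SE, edgeR adjusted p = 0.133), and ITGB1, a subunit of the collagen-binding integrins, was at 0.39 ± 0.16. LUM had 14, 6 and 10 counts against 37, 29 and 0.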

How the data were processed

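RNA sequencing of 6 HEK293 lines was deposited as 1 count table per line, and the groups came from the labels. Read counts per gene are the authors' raw deposited values; per the submitters' processing notes, cutadapt 1.8.1, Trimmomatic 0.33, STAR 2.5.2b, HTSeq 0.6.1p1 and DESeq2 1.16.1 were used with GRCh38, and their order, settings and annotation release are not given in the sources used here. Reads on no gene were 26.5% to 30.6% of all rows and reads aligned to several places 13.3% to 14.6%; these stayed out of library sizes and tests. TPM values are the authors' own, per the file headers. The authors' deposited comparison table holds a mean normalised count (a signal), a shrunken log2 fold change, a test score and p-values; the reads on the construct rows gave its direction.

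Counts of 17261 genes that passed edgeR's filterByExpr were fitted with edgeR 4.0.16 (R 4.3.3, quasi-likelihood, TMM, minimum count 10), with p-values adjusted by Benjamini-Hochberg over all of them and called under 0.05. CPM are counts scaled to TMM-adjusted library sizes. Alternatives used DESeq2 1.42.0, limma 3.58.1 (voom, or log2(TPM + 1) and log2(TPM + 0.1)), other filters and scalings, each line left out in turn, and an offset for the median level of 50 neighbouring genes on each side. The scripts were tested on simulated data. Gene coordinates and exons are from GENCODE 29 (GRCh38). No per-sample column was left unused.

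Members described in full were every member past the threshold, the 6 in each direction with the smallest unadjusted p and the 8 with the highest mean TPM; for the list of 56 further genes, every call and at most the 2 smallest p of each class. The members and lists were chosen with earlier results of these data known, so SPARC in particular is no independent evidence. The floor used for COL6A5 covers counting error only, whereas SE and SD values include the spread between lines.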

Additional observations from a re-analysis of the deposited data

How the results depend on the processing

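No paired analysis was possible because the groups share no line number. The number of genes called, 10 with edgeR, was 508 with DESeq2, 37 with the neighbours' level removed, 16 with limma voom, 888 without a filter on low counts, 22 with spike-in scaling, and 0 to 970 when single lines were left out (0 without GST line 9, where 1488 genes had an unadjusted p under 0.05; 970 without NOCT line 12). For collagen chain genes, 0 calls became 1 with DESeq2 (COL6A1), 1 with limma voom (COL6A5), 8 without the filter and 0 to 8 with single lines left out (8 without NOCT line 12), and for the list of 56 genes 1 call became 5 with DESeq2, 7 without the filter and 0 to 10 with single lines left out. At 0 member calls, 11 of the 32 tested members had an unadjusted p under 0.05 in edgeR, beside 2399 of 17261 genes. Without the filter, COL4A1, COL4A4, COL5A1, COL6A5, COL7A1 and COL12A1 were called higher and COL6A1 and COL27A1 lower. How many genes were tested without the filter is not given here, so those calls have no share beside them. The causes of these moves in the number of calls were not tested. The summed level of the other classes moved from -0.05 to 0.30 (log2) without COL6A1.

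Of 575 alternative values of single genes, for 34 genes, 527 kept their direction and side of the threshold, 29 gained a call, 3 lost one (all SPARC) and 16 turned in sign. COL4A5 turned to 0.058 and 0.055 on the log2(TPM + 0.1) and log2(TPM + 1) scales and 0.11 with spike-in scaling, and COL4A6 to 0.074, 0.067 and 0.12. COL18A1 was at 0.045 and SEC24D at 0.011 with the neighbours' level removed, and LUM at -0.29 with limma voom. With single lines left out, COL4A5 ranged from -0.13 to 0.069, COL4A6 from -0.095 to 0.14, COL4A2 from -0.16 to 0.77, COL2A1 from -0.090 to 2.14 and MMP14 from -0.070 to 0.50. Each group holds 3 clones, and the 12 members not tested had at most 73 counts in all.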
